A study of Mus musculus with 18 samples.

Results

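The transcriptome of mouse E14 embryonic stem cells (ESCs) after 7 days in hypoxia was set against that after 2 days in hypoxia, to ask what changes when low oxygen is prolonged. The comparison used all genes of the ESC expression table with a TPM (expression scaled by gene length and library size) above 0.4 in at least 2 of its 6 libraries, which gave 12271 of 13578 genes, and 4 of the 18 libraries of the series: 2 biological replicates at hypoxia day 2 and 2 at hypoxia day 7. ESCs were wild-type cells grown without feeders on gelatin, hypoxia was 2% O2, and normoxia, sampled in 2 further ESC libraries, was 20% O2. The other 12 libraries came from trophoblast stem cells (TSCs), which were grown on feeders, and extra-embryonic endoderm stem (XEN) cells under the same conditions. No genetic change or drug distinguished the groups, and all ESC libraries came from 1 cell line, so the spread is that between cultures of E14. RNA was taken from whole cultures, so a few cells with high expression and many cells with a little cannot be told apart.

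In low oxygen, the prolyl hydroxylases that mark the alpha subunits of hypoxia-inducible factors (HIFs) for degradation lose activity, and HIFs then raise glycolytic enzymes, glucose transporters and regulators of angiogenesis. ESCs in culture are an in vitro model of the epiblast, the layer that forms the primitive streak at gastrulation, where Wnt ligands, Nodal and the T-box factor T act. Genes of the germline, many of them in multicopy families on the X chromosome, are held silent or low in most somatic cells by DNA methylation and repressive chromatin.

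The ESC identity of the libraries was plain from 12 pluripotency markers, whose summed TPM lay between 17481 and 20636 in the 6 libraries. The depth behind the values was 37760283 to 61958573 reads per ESC library, as recovered from the TPM values. The 2 day 2 libraries differed more from each other than did those of the other groups: 13.4% of genes were over 1.5-fold apart between them, against 5.61% between the day 7 libraries and 3.88% between the normoxia libraries. Between the means of day 7 and day 2, 3.15% of genes were over 1.5-fold apart. A difference between means of 2 libraries varies less than one between single libraries, so these shares are not read against each other.

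Differentially expressed (DE) genes were those with an adjusted p (Benjamini-Hochberg) of at most 0.1 and a change over 1.5-fold in limma's moderated test on log2(TPM + 0.5), fitted over the 6 ESC libraries. All fold changes below are on that scale, which understates the change of weakly expressed genes. By this test, 22 genes (0.179% of those tested) were DE, and all 22 were higher on day 7. No gene was DE lower, although 118 (0.962%) had an unadjusted p under 0.05 in that direction, and limma voom on the recovered reads called 0 lower. At the same unadjusted threshold 405 genes (3.3%) were higher. Both directions together gave 523 genes, fewer than the 613.55 expected by chance at that threshold. The 22 genes are Magea4, Magea5, Magea8, Xlr3a, Xlr3b, Xlr3c, Xlr4a, Xlr4b, Xlr4c, Xlr5c, Rhox2a, Rhox5 and Rhox9 on the X chromosome, and T, Acta2, Dnajc5g, Mgl2, Spint5, Tktl2, Nefm, Edn1 and Arntl2 on other chromosomes. In each of them both day 7 libraries lay above the other 4 ESC libraries. Limma voom called 14 of the 22. Xlr4a, Xlr4c, Rhox2a, Mgl2, Spint5, Tktl2 and Edn1 did not pass it (limma voom adjusted p from 0.119 to 0.453), and Rhox5 was not tested by it. The X chromosome carried 13 of the 22 DE genes and 3.57% of the genes tested. However, Magea5, Magea8, Xlr4a, Xlr4b, Xlr4c, Xlr5c and Mgl2, 6 of them on the X chromosome, passed the filter on low values only through the day 7 libraries, where they were high. Of the 15 DE genes that pass without those libraries, 7 were on the X chromosome, which held 3.49% of all genes that pass in this way.

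The number of calls rested on having 2 libraries on day 7. With either day 7 library left out no gene was DE (406 and 467 genes at an unadjusted p under 0.05), while all 22 genes were still higher on day 7. With 1 day 2 library left out the count became 192 without replicate 1 and 57 without replicate 2, the 22 genes among them both times. With either normoxia library left out, 6 genes were DE. The direction of the 22 genes was bound to stay with any 1 library left out, since both their day 7 libraries lay above all other ESC libraries. It therefore adds no support to the calls. For a single gene, an exact permutation test of 2 against 2 libraries cannot go below p = 0.333. Just inside the threshold lay Spint5 (adjusted p = 0.086, limma) and just outside it Plagl1 (adjusted p = 0.104) and Actc1 (adjusted p = 0.105).

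**Figure D1:**
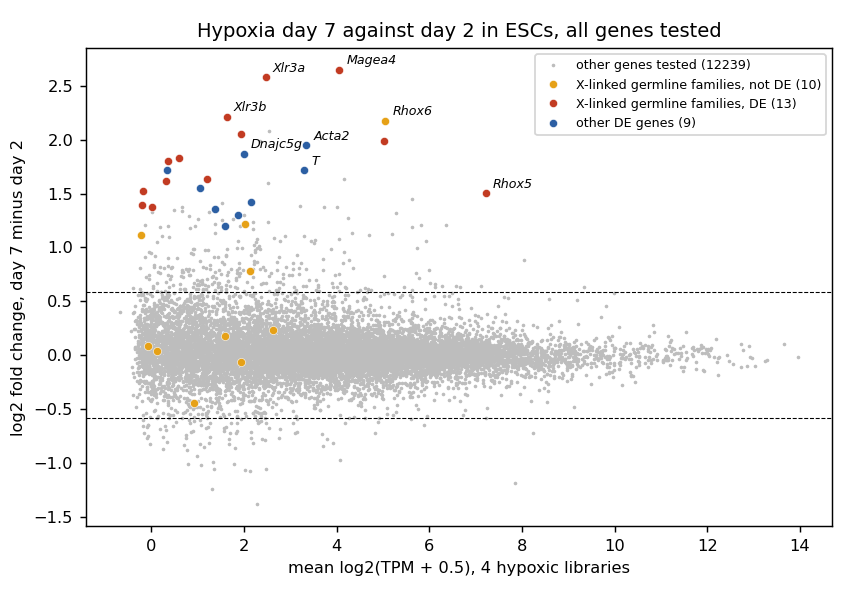
Log2 fold change (day 7 minus day 2, vertical axis) against the mean log2(TPM + 0.5) of the 4 hypoxic ESC libraries (horizontal axis), 1 point per gene, with dashed lines at 1.5-fold. The 13 DE genes of X-linked germline families (red) and the 9 other DE genes (blue) stand above the bulk of the 12271 genes, and no coloured point lies below the lower line.

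The X-linked DE genes fell into 3 regions of the GRCm38 assembly. Each region was drawn from the start of its first DE gene to the end of its last. The counts of DE genes inside the regions were thus partly fixed by how they were drawn. The first, chrX:37244976-37901770, is part of the Rhox cluster of homeobox genes, which are expressed mainly in reproductive tissues and placenta, and held 4 tested genes: the DE genes Rhox2a, Rhox5 and Rhox9, and Rhox6. The second, chrX:72222017-73292976, held 15 tested genes, of which Magea4 and 7 genes of the Xlr3, Xlr4 and Xlr5 families were DE. The Xlr families (X-linked lymphocyte-regulated) encode nuclear proteins related to a synaptonemal complex component, and Magea genes belong to the melanoma antigen family, whose expression in adults is largely restricted to testis. The third, chrX:154985775-155063145, held 2 tested genes, Magea8 and Magea5, both DE. The second region also held genes of general function with nearly equal means on both days: the centrin gene Cetn2 had mean TPMs of 57.97 on day 2 and 58.05 on day 7, F8a of 8.32 and 8.91, and the sterol enzyme gene Nsdhl of 8.47 and 9.11. The median log2 fold change of the 7 genes of that region that were not DE was 0.14, and 2 of them, Pnma5 (1.20, adjusted p = 0.419) and Xlr5b (1.12, adjusted p = 0.233), were past 1.5-fold.

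The 250 bases upstream of the annotated start are shown for the 4 DE genes with the largest fold changes, because 3 of them are near copies that moved together. They are from RefSeq (GRCm38.p6), read 5′ to 3′ on the strand of the gene, with CG dinucleotides, the sites of DNA methylation, in capitals. Magea4 is at chrX:72221767-72222016 (plus strand), Xlr3a at chrX:73097096-73097345 (minus), Xlr3b at chrX:73191929-73192178 (plus) and Xlr3c at chrX:73265391-73265640 (minus).
Magea4: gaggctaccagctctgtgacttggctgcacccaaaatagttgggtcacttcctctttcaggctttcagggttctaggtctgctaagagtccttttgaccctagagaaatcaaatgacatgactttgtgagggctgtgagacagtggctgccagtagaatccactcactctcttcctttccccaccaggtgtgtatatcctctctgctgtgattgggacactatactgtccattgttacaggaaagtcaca
Xlr3a: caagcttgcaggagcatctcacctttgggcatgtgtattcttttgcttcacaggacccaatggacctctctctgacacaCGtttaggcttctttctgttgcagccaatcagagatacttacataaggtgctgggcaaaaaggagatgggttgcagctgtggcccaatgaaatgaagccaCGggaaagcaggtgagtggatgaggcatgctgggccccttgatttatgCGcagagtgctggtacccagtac
Xlr3b: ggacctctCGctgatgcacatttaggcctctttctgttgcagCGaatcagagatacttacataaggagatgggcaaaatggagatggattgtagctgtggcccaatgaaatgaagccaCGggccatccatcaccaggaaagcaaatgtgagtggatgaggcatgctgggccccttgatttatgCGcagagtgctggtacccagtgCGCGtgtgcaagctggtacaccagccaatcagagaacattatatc
Xlr3c: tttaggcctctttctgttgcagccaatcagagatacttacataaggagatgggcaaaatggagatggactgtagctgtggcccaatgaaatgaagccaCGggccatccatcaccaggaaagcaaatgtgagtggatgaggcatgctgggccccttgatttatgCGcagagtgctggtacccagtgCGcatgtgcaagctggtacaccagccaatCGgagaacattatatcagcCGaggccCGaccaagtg
The Magea4 window held 0 CG dinucleotides, that of Xlr3a 3, and those of Xlr3b and Xlr3c 6 each. The median over the 9809 tested genes with a promoter in the same RefSeq set was 16, and 11 over the 381 of them on the X chromosome. Of the 22 DE genes, 20 had a promoter there, and 13 of these windows held at most 6 CG, which 16.1% of the tested genes and 26.5% of those on the X chromosome did. RefSeq and GENCODE starts differ for some of them. The Rhox5 window, chrX:37754358-37754607, lies far upstream of the GENCODE gene at chrX:37804842-37808876. The windows of Arntl2, Dnajc5g, Xlr5c and Magea5 lie wholly inside their GENCODE genes. Among the DE genes, T had the most CG, 14. The longest run of bases shared by the 3 Xlr3 windows was 58 bases long.
Xlr3a, Xlr3b and Xlr3c, shared run: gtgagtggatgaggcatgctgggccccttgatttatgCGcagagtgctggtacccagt
It began 60 bases before the annotated start in Xlr3a, 104 in Xlr3b and 124 in Xlr3c. The core of the hypoxia response element, ACGTG on either strand, was found in 1 of the 20 windows, that of Xlr3a, and in 22.1% of the windows of tested genes. CCAAT on either strand, searched separately, was in 14 of the 20 and in 37.4% of tested genes. These matches describe letters in a window and no more.

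The largest rise was that of Magea4. Its TPM was 4.68 and 2.84 in normoxia, 7.12 and 5.31 at day 2, then 49.3 and 34.6 at day 7, a log2 fold change of 2.65 ± 0.27 (SE, n = 2 against 2, limma adjusted p = 0.013). The recovered reads behind it were 33 and 26 at day 2 and 222 and 113 at day 7. The other 2 Magea genes that were DE came from near zero. Magea5 had 2 reads in each day 2 library and 53 and 26 on day 7 (limma adjusted p = 0.059). Magea8 had 0 and 2 reads on day 2 and 66 and 24 on day 7, a ratio of rates of 55.1 with an exact 95% interval of 14.8 to 462 that covers counting error only. Its adjusted p was 0.086 (limma), and the TPM on day 7 was 1.38 and 0.69.

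The 3 Xlr3 genes rose together. Xlr3a had a TPM of 2.35 and 1.18 in normoxia, 1.91 and 1.63 at day 2, then 13.6 and 12.5 at day 7 (log2 fold change 2.58 ± 0.26, limma adjusted p = 0.013). Xlr3b had 0.709 and 0.460 in normoxia, 0.933 and 0.938 at day 2, then 5.96 and 6.38 at day 7 (2.22 ± 0.20, limma adjusted p = 0.012). Xlr3c had 1.20 and 0.682 in normoxia, 1.47 and 1.27 at day 2, then 7.55 and 6.97 at day 7 (2.06 ± 0.22, limma adjusted p = 0.020). In Xlr3b and Xlr3c both day 2 libraries already lay above both normoxia libraries, by a log2 difference of 0.41 and 0.40, while in Xlr3a they lay within the normoxia range. For each of them the difference between days was many times that between replicates. The 4 Xlr4 and Xlr5 genes that were DE were under 0.5 TPM in all normoxic and day 2 libraries and between 1.07 and 2.39 TPM on day 7. Xlr4a, for example, went from 0.201 and 0.428 TPM to 2.35 and 2.39 TPM (1.83 ± 0.26, limma adjusted p = 0.060), and Xlr5c from 8 and 14 recovered reads to 75 and 63. Copies within the Xlr families are nearly identical and the gene model of Xlr5a, chrX:73107635-73292976, spans several of the others, so how reads were divided between the copies is uncertain and their changes are not independent of each other.

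Of the Rhox genes, Rhox5 had the smallest p, which was also the smallest of the whole comparison. Its TPM was 90.6 and 79.9 in normoxia, 87.5 and 88.3 at day 2, then 240 and 261 at day 7 (log2 fold change 1.504 ± 0.13, limma adjusted p = 0.012). The day 2 values lay inside the range of normoxia and the day 7 values above it. Rhox9 had 21.6 and 11.6 TPM on day 2 and 62.3 and 66.3 on day 7 (1.99 ± 0.25, limma adjusted p = 0.036), and Rhox2a 0.780 and 0.821 on day 2 and 3.256 and 3.82 on day 7 (1.63 ± 0.20, limma adjusted p = 0.033). Rhox6, between Rhox5 and Rhox9, had a larger fold change, 2.18 ± 0.40, but 24.6 and 9.19 TPM in the 2 day 2 libraries (68.4 and 71.6 on day 7), and did not pass the threshold (limma adjusted p = 0.192).

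Of 70 genes of X-linked germline families listed, 28 were in the table and 23 were tested, and 13 of the 23 were DE, against 0.179% of all genes. The list was drawn up with earlier results of these data known, and 8 of the 23 passed the filter on low values only through the day 7 libraries. Of the 15 that pass without those libraries, 7 were DE and 10 were past 1.5-fold. The median log2 fold change was 1.504 over the 23 and also over the 15, beside 0.01 over all genes tested. Not DE but past 1.5-fold were Rhox6, Xlr5b, Rhox1 (2.54 and 3.16 TPM on day 2, 5.72 and 4.80 on day 7) and Usp26, a testis-expressed deubiquitinase (1.56 and 2.97, then 6.16 and 5.30). Members with differences near or within their error include Rhox13 (log2 fold change 0.23 ± 0.17), Mageb16 (0.18 ± 0.19), Tex11 (0.09 ± 0.18), Tktl1 (0.03 ± 0.21) and Rhox10 (-0.06 ± 0.29). The lowest was Taf7l, the germ cell TFIID subunit, at -0.44 ± 0.20. The 5 members in the table that were not tested, Nxf2, Tex16, Mageb4, Fthl17a and Xlr5a, were at 0.353 TPM or less in every ESC library.

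**Figure D2:**
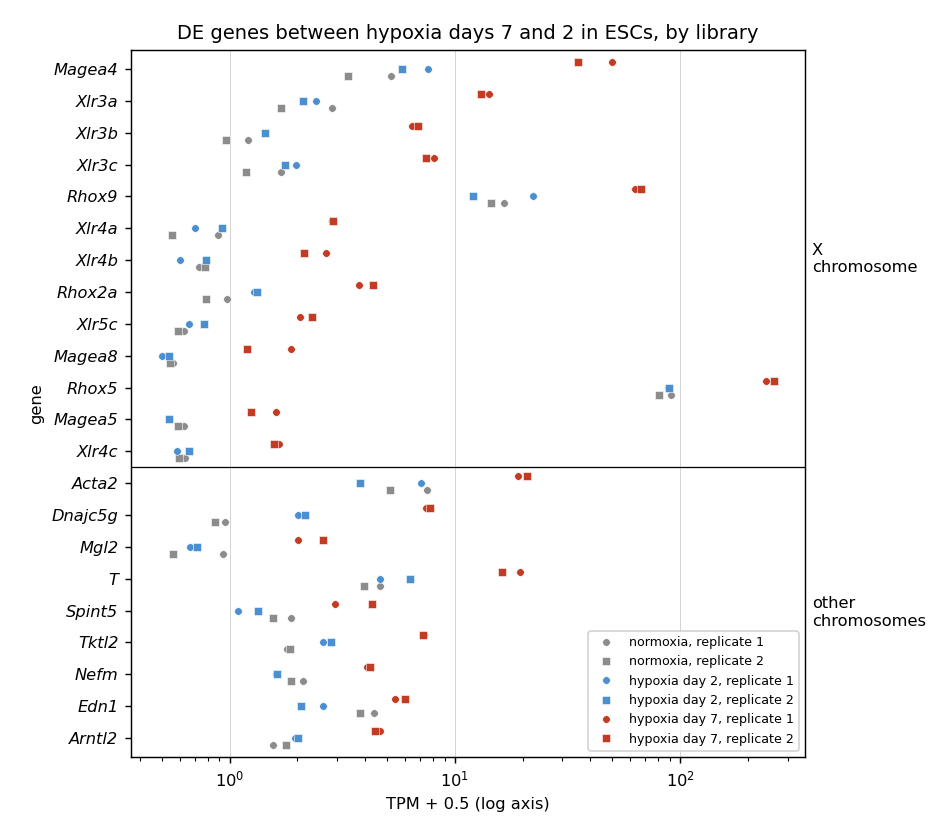
TPM + 0.5 on a log axis for each of the 22 DE genes in the 6 ESC libraries (circles, replicate 1; squares, replicate 2), with X-linked genes in the upper panel. Both red day 7 points lie to the right of the grey normoxia and blue day 2 points for every gene.

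Over the X chromosome as a whole the shift was small. The median log2 fold change of its 438 tested genes was 0.04, inside the range of the autosomes, -0.03 (chromosome 15) to 0.05 (chromosome 6). The share of genes past 1.5-fold higher was 8.45% on the X chromosome (37 genes) and 1.20% to 3.37% on the autosomes, beside 2.42% over all genes, and the share past 1.5-fold lower was 0.228%, beside 0.733%. Without the X-linked germline list, 415 genes of the X chromosome remained, of which 20 (4.82%) were past 1.5-fold higher and 0 were DE by limma (26 had an unadjusted p under 0.05 upwards and 2 downwards), while limma voom called 2, Efhc2 and Fhl1. Among those past 1.5-fold were Gm9, next to the Rhox cluster (1.93 and 2.74 TPM on day 2, 14.02 and 9.25 on day 7, log2 fold change 2.08 ± 0.36, limma adjusted p = 0.145), and Pnma5.

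**Figure D3:**
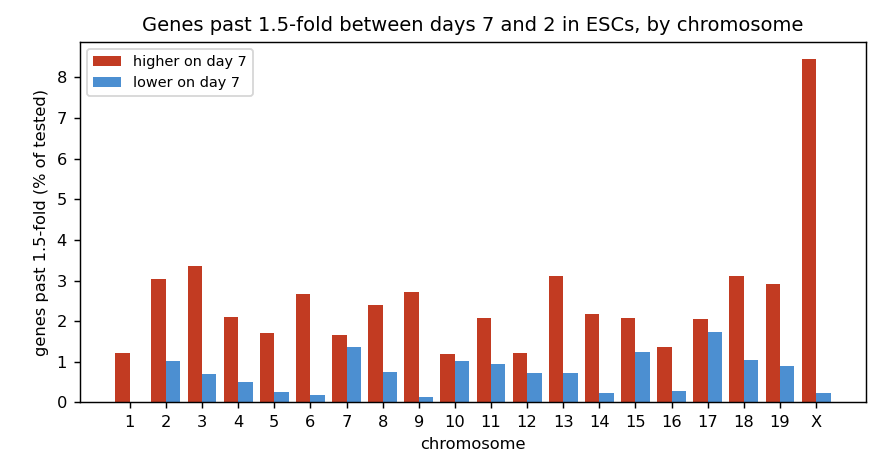
Percentage of tested genes on each chromosome that were past 1.5-fold higher (red) or lower (blue) on day 7 than on day 2 (limma estimate on log2(TPM + 0.5)). The red bar of the X chromosome, 8.45%, is above that of every autosome, the highest of which is 3.37%.

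The 9 DE genes on other chromosomes lay on 9 different chromosomes. T, the T-box factor of the primitive streak and early mesoderm, rose from 4.17 and 5.80 TPM on day 2 to 19 and 15.8 on day 7 (chr17:8434423-8442496, log2 fold change 1.72 ± 0.21, limma adjusted p = 0.033). Its normoxia values, 4.16 and 3.45 TPM, lay below those of day 2 by a log2 difference of 0.34. Acta2, smooth muscle actin, had 6.56 and 3.28 TPM on day 2 and 18.5 and 20.4 on day 7 (1.95 ± 0.30, limma adjusted p = 0.086). Dnajc5g, which encodes a cysteine string protein of testis, stepped up at both times, from 0.457 and 0.359 TPM in normoxia to 1.505 and 1.67 at day 2 and 6.97 and 7.29 on day 7 (day 7 against day 2, 1.87 ± 0.19, limma adjusted p = 0.013).

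Tktl2, a transketolase-like gene, had 2.11 and 2.32 TPM on day 2 and 6.77 and 6.74 on day 7 (log2 fold change 1.42 ± 0.18, limma adjusted p = 0.036). Nefm, the medium neurofilament chain, had 1.11 and 1.12 on day 2 and 3.57 and 3.70 on day 7 (1.36 ± 0.18, limma adjusted p = 0.047). For both genes the 2 libraries of each day were almost the same. Arntl2, a clock transcription factor of the bHLH-PAS class, went from 1.44 and 1.51 to 4.15 and 3.92 TPM (1.20 ± 0.19, limma adjusted p = 0.086), the smallest change among the DE genes. Edn1, which encodes the vasoconstrictor endothelin-1, was lower on day 2 (2.10 and 1.57) than in normoxia (3.89 and 3.31) before reaching 4.93 and 5.52 TPM on day 7 (1.30 ± 0.20, limma adjusted p = 0.086). Spint5, a Kunitz-type protease inhibitor gene, had 0.591 and 0.840 TPM on day 2 and 2.43 and 3.78 on day 7. Mgl2, which encodes a macrophage galactose-type lectin, had 0.170 and 0.214 on day 2 and 1.51 and 2.09 on day 7 (1.72 ± 0.27, limma adjusted p = 0.086).

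The rise was a late one for nearly all of the 22. Between normoxia and day 2, 19 of them were within 1.5-fold, 2 were past it higher (Magea4 at 0.68 and Dnajc5g at 1.20 on the log2 scale) and Edn1 was past it lower. The median log2 difference of the 22 was 0.06 between normoxia and day 2, 1.67 between day 2 and day 7, and 1.76 between normoxia and day 7. In the same fit 0 of 12271 genes were DE between day 2 and normoxia (limma; 620 at an unadjusted p under 0.05), and 88 (0.717%) were DE higher and 5 (0.0407%) DE lower on day 7 than in normoxia, 20 of the 22 genes among the first. These comparisons share libraries and so are not independent of that between days 7 and 2.

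The genes that HIFs are known to raise had nearly the same median on both days when both replicates of each day were used. None of the 23 tested genes of glycolysis and glucose or lactate transport was DE by limma (0.179% of all genes), and limma voom called 0. An unadjusted p under 0.05 was found in 0 of them (3.3% of all genes higher and 0.962% lower). Counts of 0 are near those shares for a list this short. The median log2 fold change of the 23 genes from day 2 to day 7 was -0.01, beside 0.01 over all genes. The extremes were -0.45 (Eno2) and 0.45 (the lactate exporter Slc16a3). Against normoxia the same list had a median of 0.57 on day 2 and 0.67 on day 7, with 11 and 13 genes past 1.5-fold higher and 0 past it lower. The share of all genes past 1.5-fold against normoxia was not counted. A second list, of 37 tested HIF targets, was made up mainly of genes outside glycolysis but shares Pfkfb3 and Slc16a3 with the first. Of these 37 genes 0 were DE (limma, with 1 at an unadjusted p under 0.05, and 0 by limma voom), again near the shares over all genes. Their median was -0.01 between the days and 0.52 and 0.55 against normoxia. Leaving out 1 hypoxic library turned the sign of that median: it was -0.24 without day 2 replicate 1, 0.225 without day 2 replicate 2, -0.16 without day 7 replicate 1 and 0.27 without day 7 replicate 2. The median of the glycolysis and transport genes moved likewise, to -0.18, 0.21, -0.13 and 0.23 in the same order. Hif1a itself had 32.4 and 32.6 TPM on day 2 and 29.5 and 33.9 on day 7 (log2 fold change -0.04 ± 0.14).

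Within each day these genes differed widely between the replicates. Ndufa4l2, a mitochondrial HIF target, had 41.5 and 217 TPM in the day 2 libraries and 141 and 63.1 on day 7, against 9.71 and 5.03 in normoxia. Bhlhe40, a hypoxia-inducible repressor, had 33.1 and 97.7 on day 2 and 100.4 and 28.0 on day 7. Egln3, which encodes a HIF prolyl hydroxylase, had 12.5 and 31.6, then 28.3 and 14.6. In each case replicate 2 was the higher on day 2 and replicate 1 the higher on day 7. That held for 30 of the 37 HIF targets (81.1%), 20 of the 23 glycolysis and transport genes (87.0%) and 38.1% of all genes tested. The replicate numbers carry no order, so this says only that these genes were unequal between cultures of the same day: the median difference between replicates was 0.55 on day 2 and -0.37 on day 7 for the HIF targets (replicate 2 minus replicate 1, log2).

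The X-linked germline genes did not share a direction between replicates. Their median difference was 0.01 on day 2, where replicate 2 was the higher in 13 of 23, and -0.10 on day 7, and 7 of 23 (30.4%) followed the order of the HIF targets. Single members did differ between the day 2 libraries: 4 of the 23 were over 1.5-fold apart (17.4%, beside 13.4% of all genes), namely Rhox6, Rhox9, Usp26 and Rhox10 (2.51 and 4.52 TPM), and 8 passed the filter only through day 7, so that the pseudocount flattens their differences on day 2. Of the HIF targets, 18 of 37 were over 1.5-fold apart on day 2. Relative to normoxia, the median of the 23 genes was 0.13 and 0.11 in the 2 day 2 libraries and 1.76 and 1.505 in the 2 day 7 libraries, while that of the HIF targets was 0.30 and 0.76, then 0.81 and 0.36.

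**Figure D4:**
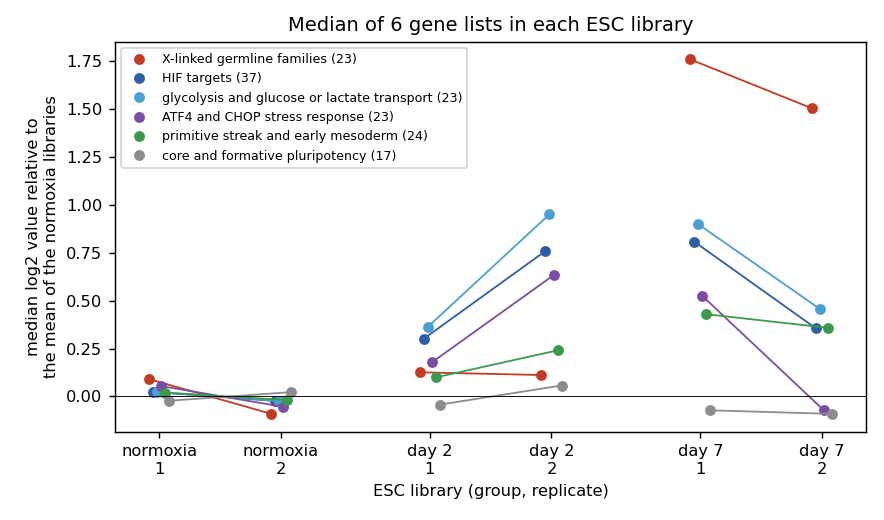
Median over the tested genes of 6 lists of log2(TPM + 0.5) minus the mean of the 2 normoxia libraries (vertical axis), in each ESC library (horizontal axis), with a line joining the 2 replicates of a group. The X-linked germline families are near 0 in normoxia and on day 2 and at 1.76 and 1.505 on day 7, whereas the HIF target and glycolysis lists are above 0 in all 4 hypoxic libraries and the stress list in 3 of them, with -0.07 in day 7 replicate 2.

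Genes that ATF4 and CHOP induce under amino acid shortage or endoplasmic reticulum stress had a lower mean on day 7 in most cases, without any gene passing the test. Of 23 tested, 22 had a negative log2 fold change (46.5% of all genes did), 3 had an unadjusted p under 0.05 downwards (0.962% of all genes) and 0 upwards, and 0 were DE by limma or limma voom, with a median of -0.25. That direction rested on single libraries: the median was 0.06 without day 2 replicate 2 and 0.06 without day 7 replicate 2, against -0.498 without day 2 replicate 1 and -0.56 without day 7 replicate 1. Fgf21, a stress-induced hormone, had 2.37 and 1.68 TPM in normoxia, 7.00 and 8.20 at day 2, then 3.14 and 3.62 at day 7 (-1.06 ± 0.21, limma adjusted p = 0.24). Ddit3, which encodes CHOP, had 13.1 and 36.3 on day 2 and 18.7 and 10.4 on day 7 (-0.63 ± 0.43), and these groups overlapped. As with the HIF targets, the replicates were unequal, with replicate 2 higher on day 2 and replicate 1 higher on day 7 in 21 of 23 genes.

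Genes of the primitive streak and early mesoderm leaned upwards with T. Of 24 tested (25 in the table, 28 listed), T was the only one DE. Past 1.5-fold were 6 higher (2.42% of all genes) and 2 lower (0.733%). An unadjusted p under 0.05 was found in 7 upwards (3.3% of all genes) and 1 downwards (0.962%). The median log2 fold change was 0.43, beside 0.01 for all genes. In 13 of the 24 both day 7 libraries lay above both day 2 libraries, which was so for 15.2% of all genes tested, and in 2 both lay below (8.8% of all genes). However, Wnt3, Pdgfra and Cdx4, all counted among the 13, passed the filter on low values only with the day 7 libraries. Of the 21 genes that pass without those libraries, 5 were past 1.5-fold higher, and their median was 0.43. Fgf8, a growth factor of the streak, had 1.64 and 1.77 TPM on day 2 and 5.84 and 3.89 on day 7 (1.26 ± 0.29, limma adjusted p = 0.409). Hand1, a factor of extra-embryonic and lateral mesoderm, had 3.57 and 5.64 on day 2 and 12.7 and 8.32 on day 7 (1.11 ± 0.26, limma adjusted p = 0.452). Neither passed the test, though their day 7 and day 2 values did not overlap. Eomes (10.6 and 12.1 on day 2, 15.4 and 16.2 on day 7, 0.47 ± 0.17) and Mixl1 (2.56 and 2.96, then 5.69 and 3.34, 0.58 ± 0.32) had smaller differences. Tbx6, which acts in presomitic mesoderm, had 1.603 and 4.22 TPM on day 2 and 1.29 and 1.28 on day 7 (-0.82 ± 0.40), and Mesp2 7.68 and 12.8, then 6.97 and 5.56 (-0.63 ± 0.25).

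Among Wnt ligands and feedback targets none of 22 was DE by limma or limma voom. Under an unadjusted p of 0.05 were 4 upwards (3.3% of all genes) and 0 downwards (0.962%). The ligand gene Wnt3, which is needed to form the streak, had 0.304 and 0.307 TPM in normoxia, 0.354 and 0.521 at day 2, then 1.48 and 1.03 at day 7 (0.90 ± 0.21, limma adjusted p = 0.409). Wnt3 passed the filter on low values only with the day 7 libraries. Wnt4 had 0.349 and 0.678 on day 2 and 3.6 and 1.07 on day 7 (1.34 ± 0.40), and its 2 day 7 libraries were themselves far apart. Wnt7b had 2.55 and 1.63, then 5.38 and 3.88 (0.99 ± 0.29). Of the feedback targets of the pathway, Axin2 had 8.74 and 8.63 TPM on day 2 and 9.04 and 8.90 on day 7 (0.04 ± 0.19), and Lef1 5.21 and 10.8, then 5.25 and 6.27 (-0.37 ± 0.30). Wnt7a and Tmprss2 were below the filter on low values, at no more than 0.248 and 0.614 TPM in any ESC library.

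Pluripotency genes stayed high. Nanog had 967 and 792 TPM on day 2 and 940 and 1028 on day 7 (log2 fold change 0.17 ± 0.15), Pou5f1 2009 and 1632, then 1887 and 1568 (-0.07 ± 0.16), and Sox2 2771 and 3232, then 2667 and 2876 (-0.11 ± 0.17). None of 16 naive and 17 core or formative pluripotency genes was past 1.5-fold in either direction or DE by limma or limma voom, and 1 of the naive genes had an unadjusted p under 0.05. In the same way, 0 of 31 genes of DNA replication and mitosis were past 1.5-fold, with log2 fold changes from -0.09 to 0.10. Over all genes tested 2.42% were past 1.5-fold higher and 0.733% lower, so a count of 0 is near those shares for lists this short.

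Markers of other cell types were examined, since RNA of such cells could add to a rise. The summed TPM of the 13 trophoblast markers (12 in the table, 11 tested) was 169 to 192 in normoxia, 170 to 240 at day 2, then 259 to 463 at day 7. Of the 11, 0 were DE by limma or limma voom, and 4 had an unadjusted p under 0.05 upwards (3.3% of all genes). Past 1.5-fold were 4 higher (2.42% of all genes) and 0 lower. In 5 both day 7 libraries lay above both day 2 libraries (15.2% of all genes). The 4 past 1.5-fold were the keratin genes Krt8 (18.4 and 47.0 on day 2, 131 and 50.5 on day 7) and Krt18 (34.4 and 83.3, then 199.5 and 78.0), Hand1, and Cdx2, a factor of trophectoderm that is also on the streak list (2.08 and 2.78, then 4.19 and 3.77, log2 fold change 0.62 ± 0.24). Krt8 and Krt18 made up 31.0% to 35.3% of the summed TPM in normoxia and day 2 replicate 1, 54.4% in day 2 replicate 2, and 71.4% and 49.7% on day 7. The TPM values here are scaled by gene span including introns, so these are not shares of RNA and are read only between libraries. Elf5 was not in the table and Fgfr2 was at no more than 0.169 TPM. Further keratin genes were Krt19 (14.9 and 39.0, then 82.1 and 45.7) and Krt7 (0.890 and 2.33, then 3.46 and 3.02), of which Krt7 had nearly equal day 7 libraries. Krt8 and Krt18, together with Krt19 and Krt7, are also on the endoderm list, so the counts of the trophoblast and endoderm lists overlap. Of the 14 endoderm genes tested, these 4 were past 1.5-fold higher, 1 gene was past it lower and 0 were DE by limma or limma voom. The median log2 fold change of that list was 0.18. The summed fibroblast markers were 32.7 to 38.0 in normoxia, 32.6 to 41.95 at day 2, then 54.8 to 63.1 at day 7. Of these 13 markers, 7 were tested and 3 were past 1.5-fold: Acta2, Col1a1 (1.63 and 2.55, then 15.1 and 6.05) and Col1a2 (0.0778 and 0.126, then 1.14 and 0.679). Col1a2 passed the filter on low values only with the day 7 libraries, and of the 6 that pass without them 2 were past 1.5-fold. Lum, Dcn, Postn and Twist2 were not in the table, Col3a1 was at no more than 0.484 TPM, and Thy1 had 22.05 and 32.5 TPM on day 2 and 23.5 and 24.8 on day 7. The summed primitive endoderm markers, 84.1 to 120 on day 2 and 137 to 172 on day 7, overlapped normoxia (114 to 163), with Gata4 at no more than 0.407 TPM. The part of such cells in the rise of Acta2 or in the keratin, Hand1 and Cdx2 values was not tested.

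Of 51 tested germline genes outside the X chromosome, 0 were DE by limma or limma voom and the median log2 fold change was 0.04, but a subset had higher values on day 7. An unadjusted p under 0.05 was found upwards in 11 of the 51 (3.3% of all genes) and downwards in 0, 10 were past 1.5-fold higher (2.42% of all genes) and none lower, and in 16 both day 7 libraries lay above both day 2 libraries (15.2% of all genes). Without the day 7 libraries 49 of the 51 pass the filter on low values, the 10 past 1.5-fold among them. The largest rises were those of Tuba3b, a testis tubulin (1.86 and 2.23 TPM on day 2, 5.36 and 6.18 on day 7, 1.30 ± 0.28, limma adjusted p = 0.334), of Ctcfl, the germ cell paralogue of CTCF (1.79 and 2.19, then 4.73 and 5.65, 1.19 ± 0.25, limma adjusted p = 0.306) and of Gpat2 (8.79 and 6.30, then 16.5 and 15.2, 1.04 ± 0.29). In each of them both day 7 libraries were above both day 2 libraries. Of 21 genes of the 2-cell-like state, 14 had a negative log2 fold change, and the Zscan4 members tested lay between -0.16 and -0.38. Exceptions were Pramel6 (14.7 and 6.24, then 26.2 and 36.3, 1.63 ± 0.36) and Pramel7 (7.93 and 3.41, then 12.7 and 16.5, 1.38 ± 0.33), and neither passed the test.

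Transcripts of genes of DNA methylation and repressive chromatin, which include both writers and erasers of such marks, differed little between the days. Of 13 writers and erasers of DNA methylation, 0 were DE by limma or limma voom or had an unadjusted p under 0.05, and log2 fold changes ran from -0.23 to 0.16. The same counts held for 19 members of the PRC1.6 complex and the H3K9 methylation machinery, from -0.21 to 0.16. Of 21 JmjC histone demethylases, which use oxygen, 0 were DE by limma or limma voom, 1 was lower at an unadjusted p under 0.05, and log2 fold changes ran from -0.42 to 0.25. Over all genes 0.179% were DE by limma, and 3.3% were higher and 0.962% lower at that unadjusted p. The counts are near those shares for lists this short. Transcript levels alone were measured here, not methylation or the activity of these enzymes.

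Of 28 imprinted growth regulators, 4 were past 1.5-fold higher (2.42% of all genes) and 1 lower (0.733%). By limma 0 were DE and by limma voom 1, Plagl1. An unadjusted p under 0.05 was found in 5 upwards (3.3% of all genes) and 2 downwards (0.962%). Plagl1, a zinc finger factor that regulates other imprinted genes, had 0.361 and 0.402 TPM on day 2 and 1.38 and 2.18 on day 7 (1.35 ± 0.22, adjusted p = 0.104 by limma and 0.040 by limma voom). Mest had 15.1 and 9.19, then 24.97 and 33.9 (1.27 ± 0.26), and Igf2, the fetal growth factor, 1.48 and 3.32, then 6.57 and 5.24 (1.21 ± 0.30). Phlda2, which restrains placental growth, had 306 and 486, then 270 and 201 (-0.72 ± 0.25, limma adjusted p = 0.914). The last 3 passed neither test, and the median of the list was 0.08. Of 24 cholesterol synthesis genes and 19 p53 targets none was past 1.5-fold, DE by limma or limma voom, or under an unadjusted p of 0.05. Lists this short would hold few such genes at the shares over all genes.

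**Figure D5:**
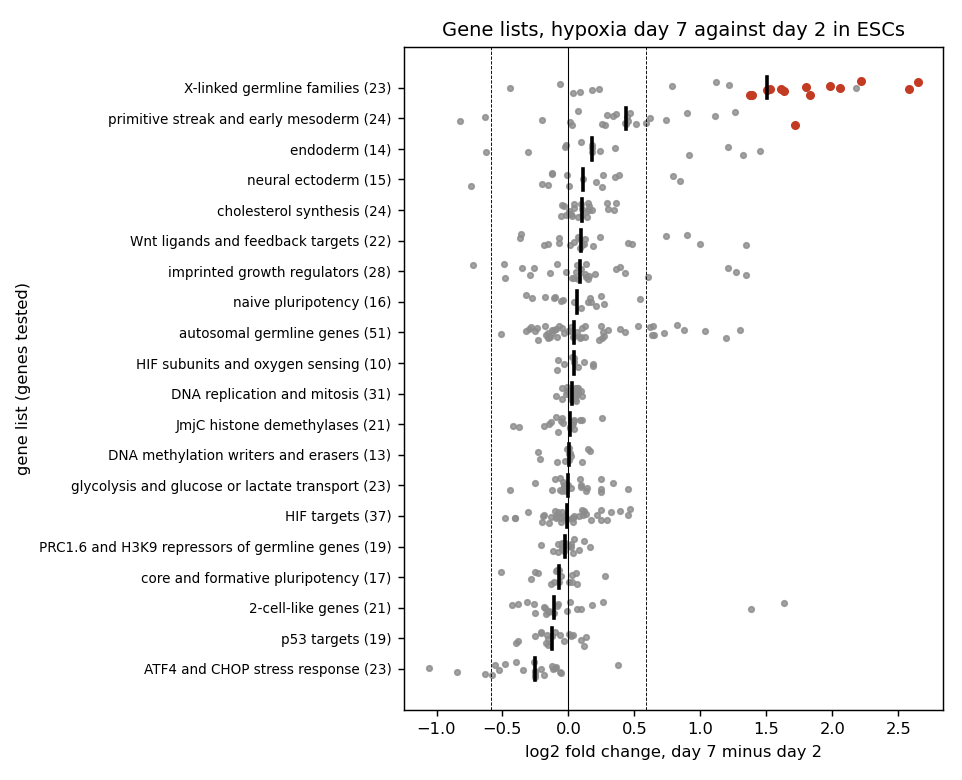
Log2 fold change, day 7 minus day 2, of every tested gene of 20 lists (points, with DE genes in red and the number tested in brackets), the median of each list (black bar) and dashed lines at 1.5-fold. The X-linked germline families have a median of 1.504, the next list 0.43, and the stress list the lowest, -0.25.

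With all libraries, falls between the days were fewer than rises: 90 genes (0.733%) were past 1.5-fold lower and 297 (2.42%) past it higher. Without day 2 replicate 1 that order turned, with 532 genes past it lower and 466 higher, and 81 DE lower beside 111 DE higher. The gene with the smallest p among the falls was Ankrd34a, with 21.5 and 24.5 TPM on day 2 and 13.3 and 9.79 on day 7 (log2 fold change -0.98 ± 0.18, limma adjusted p = 0.19). Its normoxia values, 25.9 and 26.4 TPM, were near those of day 2. Sat2 had 5.42 and 5.45 on day 2 and 3.07 and 1.73 on day 7 (-1.07 ± 0.26), and Angptl8, which encodes an inhibitor of lipoprotein lipase, 2.56 and 4.0, then 0.915 and 1.74 (-1.06 ± 0.28). Rnf223 had the largest fall among genes with non-overlapping values and a mean of at least 1 TPM, from 2.04 and 5.32 TPM to 1.37 and 0.898 (-1.25 ± 0.37, limma adjusted p = 0.658), and its day 2 libraries were themselves far apart.

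Rises that missed the threshold, chosen by the same rule of size, were Rhox6, Gm9, Col1a1, Pramel6, Pramel7, Krt8, Peg12, Thbs1, Acta1 and Dkkl1. Peg12, an imprinted gene, had 4.33 and 1.76 TPM on day 2 and 9.71 and 9.34 on day 7 (1.601 ± 0.32, limma adjusted p = 0.239). Thbs1, which encodes the matrix protein thrombospondin-1, had 6.73 and 13.1, then 35.9 and 17.8 (1.38 ± 0.37), and Acta1, skeletal muscle actin, 5.20 and 11.5, then 25.3 and 17.3 (1.37 ± 0.39). Dkkl1, an acrosomal gene, had 0.706 and 0.292, then 1.68 and 2.44 (1.37 ± 0.26).

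The 22 genes were then read in the other 2 stem cell types, whose tables were normalised separately, so levels are given side by side and the difference between cell types was not tested. In TSCs 13 of the 22 were tested between days 7 and 2, 0 were DE higher (2.37% of all TSC genes were) and 3 were DE lower (13.8% of all TSC genes). Those 3 were T, Rhox5 and Xlr3b. Both day 7 libraries lay below both day 2 libraries in 7 of the 13 (44.9% of all TSC genes) and above them in 2 (14.3%). Those 2, neither of them DE, were Rhox9 and Xlr4b. In TSCs Rhox9 had 2113 and 3044 TPM on day 2 and 4121 and 4357 on day 7 (log2 fold change 0.74 ± 0.28). Xlr4b had 8.04 and 9.73, then 12.4 and 11.9 (0.43 ± 0.29). Rhox5 had 2809 and 2056 TPM in TSCs on day 2 and 1190 and 1324 on day 7 (log2 fold change -0.94 ± 0.24, limma adjusted p = 0.063), and Xlr3b 23.8 and 14.3, then 7.77 and 8.70 (-1.12 ± 0.32, limma adjusted p = 0.080). In XEN cells 11 of the 22 were tested and 0 were DE in either direction by limma (4 of 10894 XEN genes, 0.0367%, were DE, all higher). Both day 7 libraries lay above both day 2 libraries in 3 of the 11 (21.7% of all XEN genes) and below them in 2 (25.9%), and Rhox2a had 2.39 and 2.56 TPM on day 2 and 15.2 and 7.65 on day 7 (1.93 ± 0.40, limma adjusted p = 0.373). Magea4, Magea5, Magea8, Xlr5c, Dnajc5g, Mgl2, Spint5 and Tktl2 were in neither of the other tables.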

How the data were processed

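Total RNA of 18 libraries was sequenced (2 replicates per cell type and condition), of which the 6 ESC libraries enter the fits. The authors trimmed reads with cutadapt 2.4, aligned them to mm10 with STAR 2.7.5a, used StringTie 2.0.6 and featureCounts, kept protein-coding genes with CPM above 0.4 in at least 2 of 6 libraries (edgeR 3.26.8) and deposited TPM values, 1 table per cell type. The deposited TPM values, multiplied by gene span, fell on whole multiples of 1 step per library (within 0.05 for 98.7% to 98.9% of values). They are therefore scaled by span including introns, and reads were recovered from them. Levels of single genes are not set against each other here. Sums over marker lists give genes with long introns less weight and are read only between libraries. The strand setting of counting is not given in the sources used here.

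Genes at more than 0.4 TPM in 2 or more of the 6 libraries were tested with limma 3.58.1 (R 4.3.3; trend on) on log2(TPM + 0.5), checked on simulated data. The exact test for 2 against 2 samples cannot reach the threshold. Positions are from GENCODE (GRCm38), promoters from RefSeq (GRCm38.p6). 0 columns were left unmapped. Members and gene lists were chosen with earlier results of these data known. Some genes are on more than 1 list. Named are all DE genes, the 10 largest rises and falls short of the threshold (unadjusted p under 0.05, no overlap, mean of at least 1 TPM), up to 3 genes each way per list past 1.5-fold, and a set of streak, Wnt, keratin and pluripotency genes; other genes named were chosen after their values were seen. Alternatives changed the pseudocount, filter, scaling, gene length, trend, threshold, samples and model (limma voom on recovered reads). The paper calls the replicates biological but does not describe how their cultures were kept apart, so p-values measure the spread between these libraries.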

Additional observations from a re-analysis of the deposited data

Results flagged for a closer look

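Of the 22 genes that rose between days 2 and 7 in ESCs, 8 had both day 7 libraries below both day 2 libraries in TSCs or XEN cells. The tables of the cell types were normalised separately, and the difference between cell types was not tested. In TSCs, where 44.9% of all genes tested lay lower on day 7 in this sense, the genes were Xlr3a (log2 fold change -0.59 ± 0.35, SE), Xlr3b (-1.12 ± 0.32), Rhox5 (-0.94 ± 0.24), Nefm (-0.57 ± 0.27), Arntl2 (-0.82 ± 0.27), Acta2 (-1.67 ± 1.10) and T. T was listed at 0 in both TSC libraries of day 7, against a mean of 1.73 TPM on day 2. The other way, with both day 7 libraries above both day 2 libraries, lay Rhox9 and Xlr4b in TSCs and Xlr3a, Xlr3b and Rhox2a in XEN cells. The TSC values of Acta2, 289 and 916 TPM on day 2 and 263 and 98.9 on day 7, varied as much within a day as between days. In XEN cells, where 25.9% of genes lay lower in the same sense, the genes were Acta2 (-0.44 ± 0.46) and Edn1 (-0.41 ± 0.21), neither of them DE by limma (adjusted p = 0.672 and 0.442).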

How the results depend on the processing

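The 22 DE genes were higher on day 7 under every alternative that tested them (20 to 22 of them), but how many passed depended on the setting. Their direction was bound to hold where only the filter, pseudocount, threshold or set of libraries changed, since both day 7 libraries lay above all other ESC libraries. The count was 14 with no filter on low values, with a filter of TPM above 1, with median-ratio scaling and at an adjusted p of 0.05, and 6 with only the 4 hypoxic libraries, all higher. Calls were within 1.5 times of 22 with the other pseudocounts, exon lengths, no trend and limma voom, where 14 of its 25 calls were among the 22. Same-numbered libraries did not deviate together (r across genes 0.01, -0.09 and -0.22 for the 3 pairs of groups), so the replicate numbers pair nothing. With a replicate block 6 genes were DE, and with the day 7 numbers crossed, an alternative chosen after seeing the data, 60 were (57 higher, 3 lower).

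Genes past 1.5-fold were 488 higher and 169 lower at a pseudocount of 0.1, 48 lower at a pseudocount of 1, 465 higher with exon lengths, and 568 higher and 202 lower with limma voom. The median of the X-linked germline families was 2.21 at a pseudocount of 0.1, 1.07 at 1, 1.29 with no filter, 1.62 with the filter at TPM 1 and 2.33 with limma voom.

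Leaving out 1 library, with a lone library assumed to vary like the other groups, gave 0 to 192 DE genes (0 to 111 higher, 0 to 81 lower), 297 to 530 genes past 1.5-fold higher and 88 to 532 lower, and 1871 to 5310 genes with day 7 above day 2 and 1080 to 4726 below. Falls outnumbered rises without day 2 replicate 1 (532 against 466 past 1.5-fold). List medians ranged from 1.34 to 1.53 for the X-linked germline families, -0.24 to 0.27 for HIF targets, -0.56 to 0.06 for the ATF4 and CHOP list, -0.019 to 0.14 for naive pluripotency, -0.27 to 0.19 for p53 targets, -0.13 to 0.28 for cholesterol synthesis and -0.084 to 0.16 for imprinted genes. That of glycolysis and transport genes ranged from -0.18 to 0.23. The sign turned for genes that were not DE: log2 fold changes ranged from -0.22 to 0.076 for Pou5f1, -0.86 to 0.13 for Lef1, -1.35 to 0.083 for Ddit3 and -0.14 to 0.061 for Hif1a. The causes were not tested.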
